A study of Homo sapiens with 15 samples.

Results

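The aminoacyl-tRNA synthetases examined here were the 36 enzymes of a fixed list of gene symbols, all of them found among the 37787 genes of the count table, and comprised 20 cytosolic enzymes and 16 mitochondrial enzymes whose symbols end in 2. All 36 passed the filter on low counts, which left 13868 genes for testing. An aminoacyl-tRNA synthetase joins an amino acid to its matching tRNA and so supplies the ribosome with charged tRNA. Most amino acids have one nuclear gene for the cytosolic enzyme and another for the enzyme imported into mitochondria, where it serves the small set of proteins that the mitochondrial genome encodes. KARS1 and GARS1 each make the enzyme of both compartments from a single gene. Several cytosolic synthetase genes are known targets of ATF4, the transcription factor that cells induce when uncharged tRNA or unfolded protein accumulates.

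RNA was sequenced from HGrC1, an immortalised human granulosa cell line that keeps normal alleles of FOXL2, in 15 libraries (3 per condition, replicates A, B and C). Control cells received empty plasmids (Vectors). The other conditions were FOXL2 WT (wild-type FOXL2 plasmid), FOXL2 C134W (the FOXL2 form recurrent in adult granulosa cell tumors), FOXL2 WT + FOXO1 and FOXL2 C134W + FOXO1. All conditions except Vectors also carried a SMAD3 plasmid, so no comparison with Vectors separates FOXL2 from SMAD3, and FOXO1 was the constitutively active form FOXO1-3A. Cells at passage 14 were transfected transiently for 4 h and cultured for a further 24 h, both without serum. Vectors cells were transfected too, but the transfected conditions and libraries named below are only those that received the SMAD3 plasmid. Nothing in the labels says that replicates were separate cultures, so p-values measure only the spread between these libraries, which may be technical.

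Library totals ran from 14962245 to 25339094 estimated counts. Plasmid transcripts differed between conditions. As counts scaled to one fixed total per library (CPM), FOXL2 averaged 8.73 for Vectors, 561 for FOXL2 WT, 147 for FOXL2 C134W, 384 for FOXL2 WT + FOXO1 and 152 for FOXL2 C134W + FOXO1, and SMAD3 averaged 249.3, 2768, 843, 969 and 392 CPM in the same order. FOXO1 averaged 117 and 43.2 CPM in the conditions that received it and at most 13.2 CPM in the others. Of the granulosa markers, the keratins KRT8 (2497 to 2849 CPM) and KRT18 (1668 to 1919.8 CPM) were high, whereas FSHR, the receptor for follicle-stimulating hormone, was at 0 in all 15 libraries, the aromatase CYP19A1 was at 0 in 9 and the inhibin subunit INHA reached at most 0.160 CPM. AMH (0.742 to 1.94 CPM), AMHR2 (at most 0.346 CPM) and STAR (1.38 to 3.84 CPM) were low too. Of markers of other cell types, CD68, a macrophage lysosomal protein, was called lower against Vectors in all 4 transfected conditions (88.7 to 117 CPM over all libraries), while PTPRC, which defines leukocytes, stayed at or under 0.247 CPM. The epithelial marker EPCAM was at 4.78 to 7.72 CPM, and CDH1, also epithelial, stayed at or under 0.523 CPM. Of the granulosa markers other than FOXL2, the estrogenic enzyme HSD17B1 was called higher in FOXL2 WT (0.63 ± 0.16 on the log2 scale) and KRT18 in FOXL2 C134W (0.12 ± 0.03) and FOXL2 C134W + FOXO1 (0.15 ± 0.03). The part of these markers in the results was not tested.

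Promoter sequences were compared with the changes of the members. RefSeq windows (GRCh38.p14, 250 bases before to 50 bases after each start site) were found for 30 of the 36 members; AARS2, LARS1, TARS3, VARS1, VARS2 and YARS1 had none. The C/EBP-ATF response element, the composite motif bound by ATF4 with a C/EBP partner, was searched as TGATGNAA on both strands. It was found in the windows of 7 of 16 cytosolic members and of 1 of 14 mitochondrial members, against 1217 of 27305 genes (4.46%) with a window. The 7 cytosolic matches and the mitochondrial match are printed here with 11 bases on either side, 5′ to 3′ on the strand of the gene, with the matched bases in capitals, because members with and without a match are compared.
GARS1, chr7:30594834-30594863, + strand: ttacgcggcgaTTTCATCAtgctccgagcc
AARS1, chr16:70289675-70289704, - strand: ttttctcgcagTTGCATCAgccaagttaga
CARS1, chr11:3057407-3057436, - strand: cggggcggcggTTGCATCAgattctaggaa
IARS1, chr9:92293692-92293721, - strand: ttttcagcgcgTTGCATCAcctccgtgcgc
MARS1, chr12:57488053-57488082, + strand: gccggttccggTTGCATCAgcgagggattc
TARS1, chr5:33440956-33440985, + strand: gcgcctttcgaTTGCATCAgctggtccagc
NARS1, chr18:57621804-57621833, - strand: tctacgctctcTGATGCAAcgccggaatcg
YARS2, chr12:32756076-32756105, - strand: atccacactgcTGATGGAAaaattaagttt
None of these matches overlapped a match to another motif searched. A match is a description of letters in a window, not a binding site or a cause.

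Calls among the synthetases were mostly of cytosolic members. In the edgeR test of any difference among the 5 conditions, 13 of 20 cytosolic members and 1 of 16 mitochondrial members were called at a Benjamini-Hochberg adjusted p under 0.05, where 16.4% of all genes tested were called. In that test 11 to 16 members were called with 1 library left out: MARS2 was lost without Vectors A, B or C, FOXL2 C134W C or FOXL2 C134W + FOXO1 A, LARS1 without Vectors A, B or C, WARS1 without Vectors A or B, FOXL2 WT A or B or FOXL2 C134W B, and RARS1 without FOXL2 C134W + FOXO1 A or C. In bulk RNA, a change in the number of cells of a type and a change in RNA per cell cannot be told apart. All 12 transfected libraries lay above all 3 Vectors libraries for 13 cytosolic members (AARS1, CARS1, FARSA, GARS1, HARS1, IARS1, LARS1, MARS1, NARS1, SARS1, TARS1, VARS1 and YARS1) and for 2 mitochondrial members (CARS2 and MARS2), against 3.14% of all genes. No member lay below Vectors in all 12 libraries, against 4.04% of all genes.

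**Figure D1:**
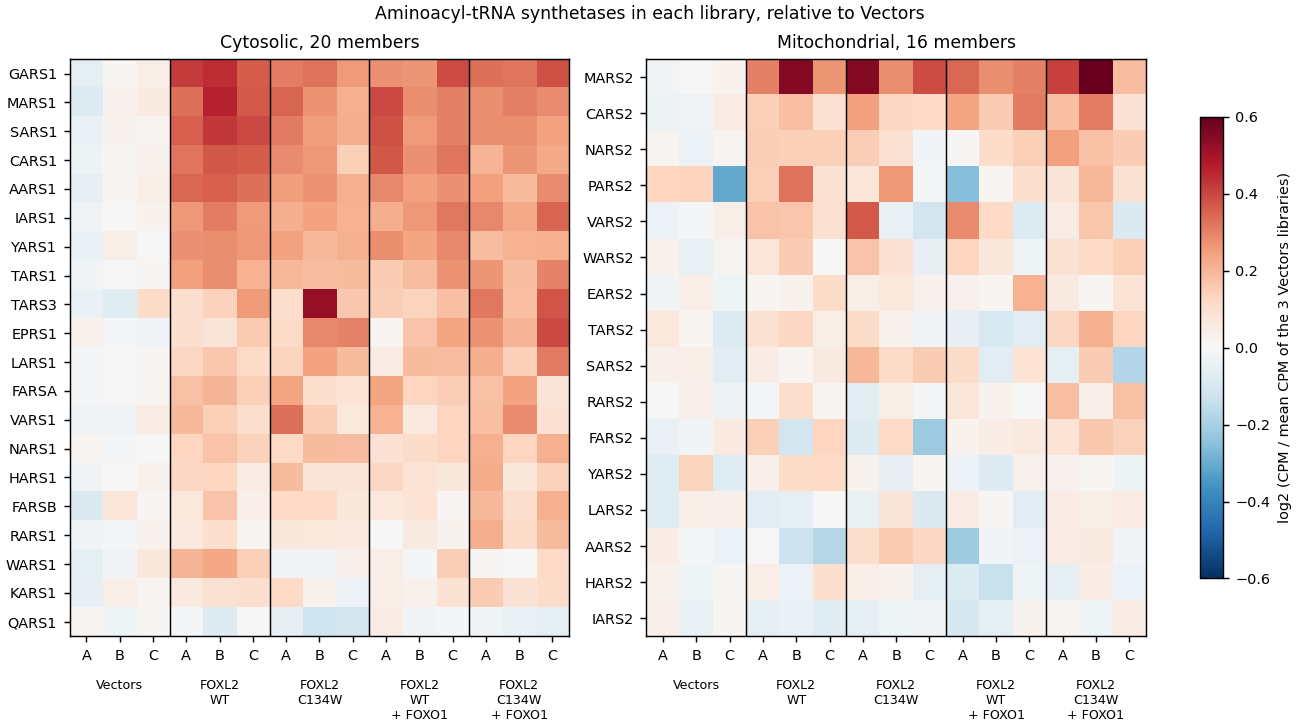
Heat map of log2 CPM of every member (lines) in every library (columns, grouped by condition) relative to the mean CPM of the 3 Vectors libraries. The block of cytosolic members in the 12 transfected libraries lies mostly above 0, most visibly for GARS1, SARS1 and MARS1, and the mitochondrial block is paler, with MARS2 and CARS2 the members above Vectors in all 12.

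The 7 cytosolic members with the smallest p in the test of any difference are given library by library, as CPM scaled by TMM, with coordinates from GENCODE 44 on hg38. GARS1 (chr7:30580533-30634033, + strand), which charges glycine tRNA in both compartments, stood at 351, 368 and 375 CPM in Vectors, at 487, 495 and 468 in FOXL2 WT, at 451, 457 and 436 in FOXL2 C134W, at 441, 438 and 479 in FOXL2 WT + FOXO1, and at 458, 456 and 475 in FOXL2 C134W + FOXO1. Every transfected library was above every Vectors library, and FOXL2 WT lay above FOXL2 C134W without overlap. Its log2 fold change against Vectors was 0.41 ± 0.04 (SE) in FOXL2 WT (1.33-fold, edgeR adjusted p = 1.28e-05) and 0.30 ± 0.04 in FOXL2 C134W (edgeR adjusted p = 8.67e-05), and FOXL2 C134W did not differ from FOXL2 WT past the threshold (-0.11 ± 0.04, edgeR adjusted p = 0.0952). SARS1 (chr1:109213918-109238182, + strand), the seryl enzyme, which also charges selenocysteine tRNA with serine, was at 251, 262 and 261 CPM in Vectors, at 329.8, 345 and 339 in FOXL2 WT, at 320.1, 307 and 299.7 in FOXL2 C134W, at 335, 307 and 317 in FOXL2 WT + FOXO1, and at 313, 312 and 305 in FOXL2 C134W + FOXO1. FOXL2 WT was the highest condition for SARS1 and Vectors the lowest, with no overlap of either with FOXL2 C134W. SARS1 rose by 0.39 ± 0.04 (log2) in FOXL2 WT (edgeR adjusted p = 1.28e-05) and by 0.26 ± 0.04 in FOXL2 C134W (edgeR adjusted p = 0.000192).

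AARS1 (chr16:70251983-70289707, - strand), the alanyl enzyme, was at 279, 292 and 296 CPM in Vectors, at 367, 371 and 364 in FOXL2 WT, at 344, 348 and 335 in FOXL2 C134W, at 353, 342 and 349.6 in FOXL2 WT + FOXO1, and at 343, 330.2 and 352 in FOXL2 C134W + FOXO1. Its spread within conditions was small beside the gap to Vectors, and FOXL2 WT again lay above FOXL2 C134W. AARS1 rose by 0.34 ± 0.04 in FOXL2 WT (edgeR adjusted p = 1.5e-05) and by 0.24 ± 0.04 in FOXL2 C134W (edgeR adjusted p = 0.00015). YARS1 (chr1:32775237-32818031, - strand), the tyrosyl enzyme, was at 240.0, 253 and 247 CPM in Vectors, at 298, 299 and 295 in FOXL2 WT, at 292, 282 and 286 in FOXL2 C134W, at 299.6, 291 and 301 in FOXL2 WT + FOXO1, and at 281, 285 and 286 in FOXL2 C134W + FOXO1. The Vectors libraries were separate from the rest, and FOXL2 WT lay just above FOXL2 C134W, a difference that did not pass the threshold (log2 fold change -0.05 ± 0.03, edgeR adjusted p = 0.334). YARS1 rose by 0.27 ± 0.03 in FOXL2 WT (edgeR adjusted p = 7.65e-05) and by 0.22 ± 0.03 in FOXL2 C134W (edgeR adjusted p = 0.000233). CARS1 (chr11:3000922-3057613, - strand), the cysteinyl enzyme, was at 109, 112 and 113 CPM in Vectors, at 139, 144 and 143 in FOXL2 WT, at 135, 133 and 123 in FOXL2 C134W, at 144, 134.5 and 139 in FOXL2 WT + FOXO1, and at 128, 133 and 130.2 in FOXL2 C134W + FOXO1. Vectors was the lowest condition for CARS1 as well, and FOXL2 C134W library C was the transfected library nearest to it. CARS1 rose by 0.35 ± 0.04 in FOXL2 WT (edgeR adjusted p = 5.59e-05) and by 0.23 ± 0.04 in FOXL2 C134W (edgeR adjusted p = 0.00105).

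IARS1 (chr9:92210207-92293854, - strand) and MARS1 (chr12:57475445-57517569, + strand), the isoleucyl and methionyl enzymes, belong to the multisynthetase complex. IARS1 was at 377, 382 and 387 CPM in Vectors, at 458, 472 and 456 in FOXL2 WT, at 445, 452 and 442 in FOXL2 C134W, at 444, 458 and 476 in FOXL2 WT + FOXO1, and at 467, 447 and 487 in FOXL2 C134W + FOXO1. The 4 transfected conditions overlapped one another in IARS1 and none overlapped Vectors, except that FOXL2 WT lay above FOXL2 C134W. MARS1 was at 292, 314 and 321 CPM in Vectors, at 389, 426 and 399 in FOXL2 WT, at 394, 372 and 358 in FOXL2 C134W, at 407, 375 and 381 in FOXL2 WT + FOXO1, and at 376, 381 and 377 in FOXL2 C134W + FOXO1. Every transfected library of MARS1 was above Vectors, and the transfected conditions overlapped except FOXL2 WT with FOXL2 C134W + FOXO1. IARS1 rose by 0.27 ± 0.04 in FOXL2 WT (edgeR adjusted p = 0.000187) and MARS1 by 0.39 ± 0.05 (edgeR adjusted p = 6.65e-05). In FOXL2 C134W the rises were 0.22 ± 0.04 for IARS1 (edgeR adjusted p = 0.000508) and 0.28 ± 0.05 for MARS1 (edgeR adjusted p = 0.000572). With DESeq2 and transcript length offsets, the route nearest to that of the study, neither gene was called against Vectors although the estimates stayed above 0, at 0.25 and 0.22 for IARS1 and 0.33 and 0.47 for MARS1 in FOXL2 WT and FOXL2 C134W.

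**Figure D2:**
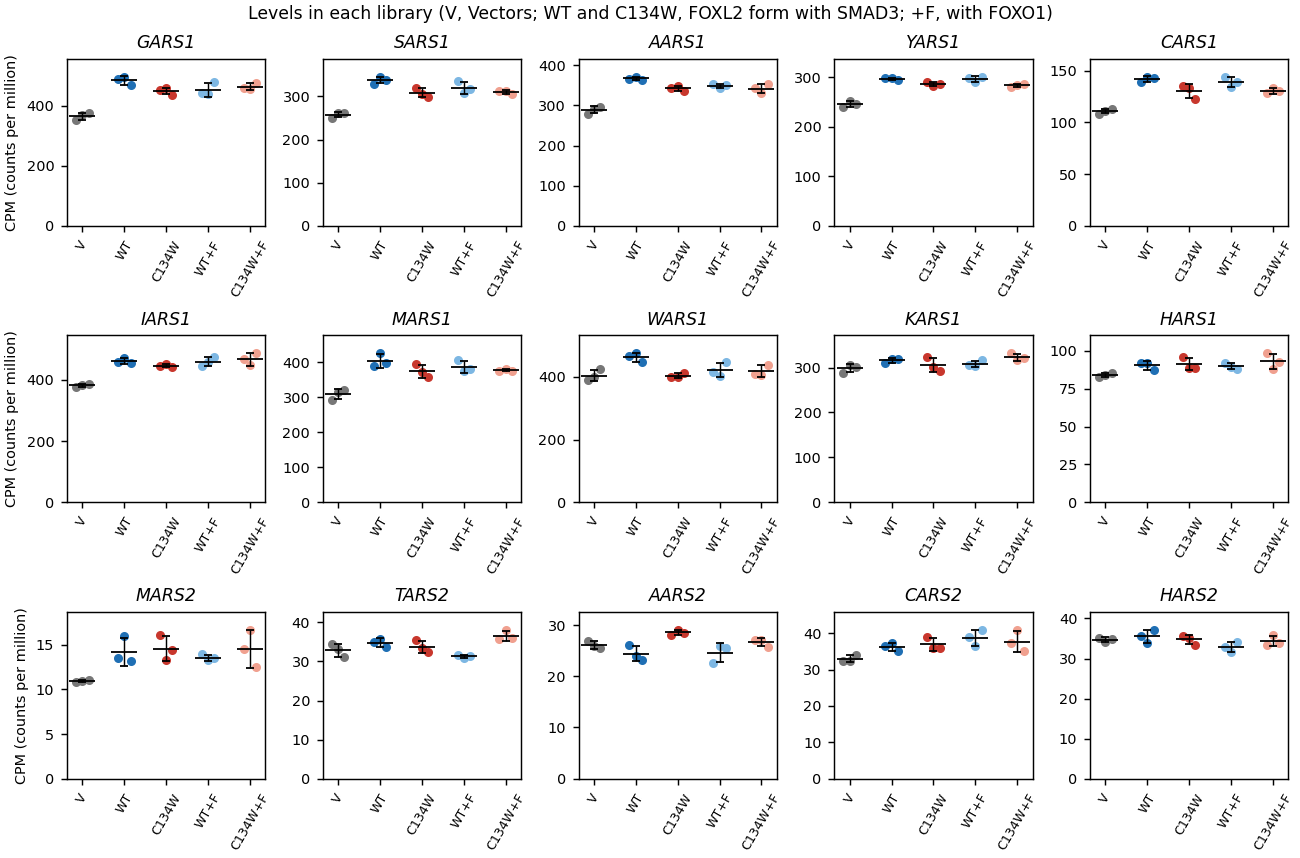
CPM of 15 named members in each library (points, 3 per condition), with the condition mean and SD (bars) and the vertical axis from 0 (V stands for Vectors and F for FOXO1). Vectors libraries lie below all others for GARS1, SARS1, AARS1, YARS1, CARS1, IARS1, MARS1, HARS1, MARS2 and CARS2, whereas WARS1, KARS1, TARS2, AARS2 and HARS2 overlap Vectors in at least 1 condition.

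WARS1 (chr14:100333790-100376805, - strand), the tryptophanyl enzyme, is known as an interferon-inducible gene. It was at 388, 400.1 and 424 CPM in Vectors, at 466, 475 and 446 in FOXL2 WT, at 399, 399 and 413 in FOXL2 C134W, at 415, 402 and 448 in FOXL2 WT + FOXO1, and at 408, 405 and 439 in FOXL2 C134W + FOXO1. FOXL2 WT had the highest mean and did not overlap Vectors, FOXL2 C134W or FOXL2 C134W + FOXO1, and 1 library of FOXL2 WT + FOXO1 reached its range. WARS1 rose by 0.19 ± 0.05 in FOXL2 WT (edgeR adjusted p = 0.0179), and in FOXL2 C134W it had the same mean as Vectors, 404 CPM. KARS1 (chr16:75627474-75648643, - strand), the lysyl enzyme of both compartments, was at 288, 305 and 301 CPM in Vectors, at 310.4, 318 and 319.6 in FOXL2 WT, at 324, 302 and 291 in FOXL2 C134W, at 306, 304 and 317 in FOXL2 WT + FOXO1, and at 332, 316 and 322 in FOXL2 C134W + FOXO1. By edgeR, KARS1 was called in no comparison, its lowest edgeR adjusted p against Vectors being 0.079 in FOXL2 C134W + FOXO1, where DESeq2 called it. The difference between the responses of KARS1 and GARS1 was not tested.

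HARS1 (chr5:140673035-140691537, - strand) and HARS2 (chr5:140691430-140699305, + strand), the cytosolic and mitochondrial histidyl enzymes, are neighbours whose RefSeq start sites lie 85 bases apart on opposite strands. HARS1 was at 82.9, 84.1 and 85.6 CPM in Vectors, at 91.8, 92.2 and 87.1 in FOXL2 WT, at 96.2, 88.8 and 88.9 in FOXL2 C134W, at 91.9, 89.0 and 88.1 in FOXL2 WT + FOXO1, and at 98.3, 88.3 and 92.5 in FOXL2 C134W + FOXO1. HARS2 was at 35.2, 34.1 and 34.8 CPM in Vectors, at 35.7, 33.8 and 37.2 in FOXL2 WT, at 35.7, 35.2 and 33.4 in FOXL2 C134W, at 32.8, 31.6 and 34.1 in FOXL2 WT + FOXO1, and at 33.5, 35.8 and 33.9 in FOXL2 C134W + FOXO1. HARS1 lay slightly above Vectors in every transfected library and HARS2 overlapped Vectors in every condition. By edgeR neither was called in any comparison, and DESeq2 called HARS1 in FOXL2 C134W + FOXO1 against Vectors. Their log2 fold changes were 0.10 ± 0.05 and 0.04 ± 0.05 in FOXL2 WT (edgeR adjusted p = 0.236 and 0.747). The genes overlap at their starts, and how reads of that overlap were assigned is not given in the sources used here.

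The other cytosolic members are given by their fold changes. Against Vectors, TARS1, the threonyl enzyme, rose in both FOXL2 WT (0.24 ± 0.04) and FOXL2 C134W (0.19 ± 0.04), and so did NARS1, the asparaginyl enzyme (0.15 ± 0.03 and 0.16 ± 0.03). FARSA, the alpha subunit of the phenylalanyl enzyme, rose in FOXL2 WT (0.17 ± 0.05, edgeR adjusted p = 0.048) and missed the threshold in FOXL2 C134W (0.14 ± 0.05, edgeR adjusted p = 0.064). EPRS1, the fused glutamyl and prolyl enzyme, rose in FOXL2 C134W (0.24 ± 0.06), as did LARS1, the leucyl enzyme (0.19 ± 0.05), and VARS1, the valyl enzyme (0.18 ± 0.06, edgeR adjusted p = 0.049). Their estimates in FOXL2 WT were 0.11, 0.13 and 0.15. RARS1, the arginyl enzyme, and FARSB, the beta subunit of the phenylalanyl enzyme, were called by edgeR in FOXL2 C134W + FOXO1 against Vectors (0.18 ± 0.04 and 0.17 ± 0.05) and in no other comparison of 2 conditions. TARS3, another threonyl enzyme with condition means of 10.3 to 12.6 CPM, and QARS1, the glutaminyl enzyme (124 to 133 CPM), were called by edgeR in no comparison, and QARS1 had the only negative estimate among cytosolic members in FOXL2 WT (-0.03 ± 0.04). These statements hold without offsets and with all libraries. In FOXL2 C134W against Vectors, edgeR with a GC offset called TARS3 and QARS1, whose estimate without offsets was -0.09. Without FOXL2 C134W A it called TARS3. In FOXL2 C134W + FOXO1 against Vectors, edgeR with a gene length offset called KARS1 and HARS1.

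Of the mitochondrial members, MARS2 (chr2:197705369-197708395, + strand), the methionyl enzyme, was the one called in the test of any difference (edgeR adjusted p = 0.0356). It was a low transcript, at 10.8, 10.9 and 11.1 CPM in Vectors, at 13.5, 16.04 and 13.2 in FOXL2 WT, at 16.1, 13.3 and 14.4 in FOXL2 C134W, at 13.9, 13.3 and 13.5 in FOXL2 WT + FOXO1, and at 14.5, 16.7 and 12.5 in FOXL2 C134W + FOXO1. Vectors libraries were close together and below all others, and the transfected conditions overlapped. MARS2 rose by 0.37 ± 0.11 in FOXL2 WT (1.29-fold, edgeR adjusted p = 0.0454), by 0.41 ± 0.10 in FOXL2 C134W (1.33-fold, edgeR adjusted p = 0.0106) and by 0.41 ± 0.10 in FOXL2 C134W + FOXO1 (edgeR adjusted p = 0.0162). The call in FOXL2 WT was lost on leaving out any 1 of the 6 libraries compared (Vectors A, B or C, FOXL2 WT A, B or C), with estimates from 0.28 to 0.43. The MARS2 window held the NRF1 motif, a factor known for nuclear genes of mitochondrial function, searched as CGCATGCG on both strands and found in 2.46% of genes with a window.
MARS2, chr2:197705332-197705361, + strand: cgacccggctgCGCATGCGcctctcacacg
No other member with a window had that motif.

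TARS2 (chr1:150487414-150507602, + strand), the mitochondrial threonyl enzyme, was at 34.4, 33.1 and 31.1 CPM in Vectors, at 35.03, 35.8 and 33.6 in FOXL2 WT, at 35.5, 33.4 and 32.4 in FOXL2 C134W, at 31.8, 30.9 and 31.3 in FOXL2 WT + FOXO1, and at 35.8, 38.1 and 35.9 in FOXL2 C134W + FOXO1. It was lowest in FOXL2 WT + FOXO1 and highest in FOXL2 C134W + FOXO1, with no overlap between them. The difference between these conditions was 0.23 ± 0.06 (edgeR adjusted p = 0.12). AARS2 (chr6:44298731-44313347, - strand), the alanyl enzyme, was at 26.9, 25.9 and 25.5 CPM in Vectors, at 26.1, 24.0 and 23.2 in FOXL2 WT, at 28.1, 29.1 and 28.4 in FOXL2 C134W, at 22.5, 25.8 and 25.5 in FOXL2 WT + FOXO1, and at 27.0, 27.1 and 25.8 in FOXL2 C134W + FOXO1. All FOXL2 C134W libraries were above all Vectors and FOXL2 WT libraries. CARS2 (chr13:110641412-110713603, - strand), the cysteinyl enzyme, was at 32.3, 32.5 and 34.1 CPM in Vectors, at 36.4, 37.3 and 35.1 in FOXL2 WT, at 39.1, 35.9 and 35.8 in FOXL2 C134W, at 38.8, 36.6 and 40.9 in FOXL2 WT + FOXO1, and at 37.3, 40.8 and 35.05 in FOXL2 C134W + FOXO1. Its transfected libraries were all above Vectors by a small margin, and it was called in FOXL2 WT + FOXO1 against Vectors (0.23 ± 0.06, edgeR adjusted p = 0.0465).

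The remaining mitochondrial members were close to Vectors. IARS2, the isoleucyl enzyme and the most abundant mitochondrial member with condition means of 206 to 216 CPM, had log2 fold changes of -0.06 ± 0.04 in FOXL2 WT and -0.03 ± 0.04 in FOXL2 C134W, with the same SE as its cytosolic partner IARS1. NARS2, the asparaginyl enzyme, was called in FOXL2 C134W + FOXO1 against Vectors (0.19 ± 0.05, edgeR adjusted p = 0.028), but had the opposite sign, -0.16, with DESeq2 and transcript length offsets. EARS2, FARS2, HARS2, LARS2, PARS2, RARS2, SARS2, VARS2, WARS2 and YARS2 were called by edgeR in no comparison with all libraries. Without FOXL2 C134W + FOXO1 B, RARS2 (arginyl) was called in that condition against Vectors. The estimates of these members in FOXL2 WT ran from -0.04 for LARS2 (leucyl) to 0.19 for PARS2 (prolyl), the latter with condition means of 5.79 to 6.77 CPM.

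Against Vectors, 11 of 20 cytosolic and 1 of 16 mitochondrial members were called higher in FOXL2 WT, where 2.46% of all genes were called higher. No member was called lower in that comparison, where 3.61% of all genes were. In FOXL2 C134W, 12 cytosolic and 1 mitochondrial members were called higher (7.48% of all genes) and none lower (7.24%). In the conditions with FOXO1, compared with Vectors after the data had been seen, 8 cytosolic and 1 mitochondrial members were called higher in FOXL2 WT + FOXO1 (1.41% of all genes, and 2.37% lower) and 14 cytosolic and 2 mitochondrial members in FOXL2 C134W + FOXO1 (4.17%, and 5.16% lower), with no member lower in either. These comparisons share the 3 Vectors libraries and are not independent of each other. With DESeq2 and transcript length offsets, 6 cytosolic members (AARS1, CARS1, GARS1, SARS1, TARS1 and YARS1) and no mitochondrial member were called in FOXL2 WT, and 8 cytosolic and 2 mitochondrial members in FOXL2 C134W, where CARS1, IARS1, LARS1, MARS1 and VARS1 were lost and FARSA and EARS2 gained. Leaving out 1 library, the calls in FOXL2 WT numbered 8 to 10: FARSA (0.16 to 0.19) was lost without any 1 of the 6 libraries, NARS1 (0.13 to 0.15) without Vectors A, B or C or FOXL2 WT B, and WARS1 (0.16 to 0.19) without Vectors A or B or FOXL2 WT A or B. In FOXL2 C134W, VARS1 (0.11 to 0.21) was lost without Vectors A, B or C or FOXL2 C134W A or B, and EPRS1 (0.21) and LARS1 (0.17) without FOXL2 C134W B. In FOXL2 WT + FOXO1, CARS2 (0.19 to 0.26) was lost without Vectors A, B or C or FOXL2 WT + FOXO1 A or C. In FOXL2 C134W + FOXO1, NARS2 (0.17 to 0.20) and FARSA (0.13 to 0.17) were lost without Vectors A, B or C or FOXL2 C134W + FOXO1 A or B, FARSB (0.13 to 0.18) without Vectors A or C or FOXL2 C134W + FOXO1 A or C, and MARS2 (0.30 to 0.41) without Vectors A or B or FOXL2 C134W + FOXO1 B.

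The median log2 fold change in FOXL2 WT against Vectors was 0.17 for cytosolic members, of which 19 of 20 were above 0, and 0.07 for mitochondrial members, of which 13 of 16 were above 0, beside 0.0025 over all genes tested. In FOXL2 C134W the medians were 0.19 and 0.06, beside 0.0043. Mitochondrial members had fewer counts (median 33.1 CPM, against 295 CPM for cytosolic members), and their median SE was 0.062 against 0.042, so a change of the same size was less likely to be called in them. The members can also be read as pairs that charge the same amino acid. The cytosolic member had the larger log2 fold change in 17 of 18 pairs in FOXL2 WT (median difference 0.10) and in 16 of 18 pairs in FOXL2 C134W (median difference 0.12), where FARSA and FARSB share FARS2, TARS1 and TARS3 share TARS2, and EPRS1 is paired with EARS2 and with PARS2. The exceptions were EPRS1 and PARS2 in FOXL2 WT and, in FOXL2 C134W, MARS1 and MARS2 and WARS1 and WARS2. The widest gap in FOXL2 WT was 0.44, between AARS1 and AARS2. The narrowest was 0.0028, between NARS1 and NARS2, less than the SE of either (0.03 and 0.05).

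**Figure D3:**
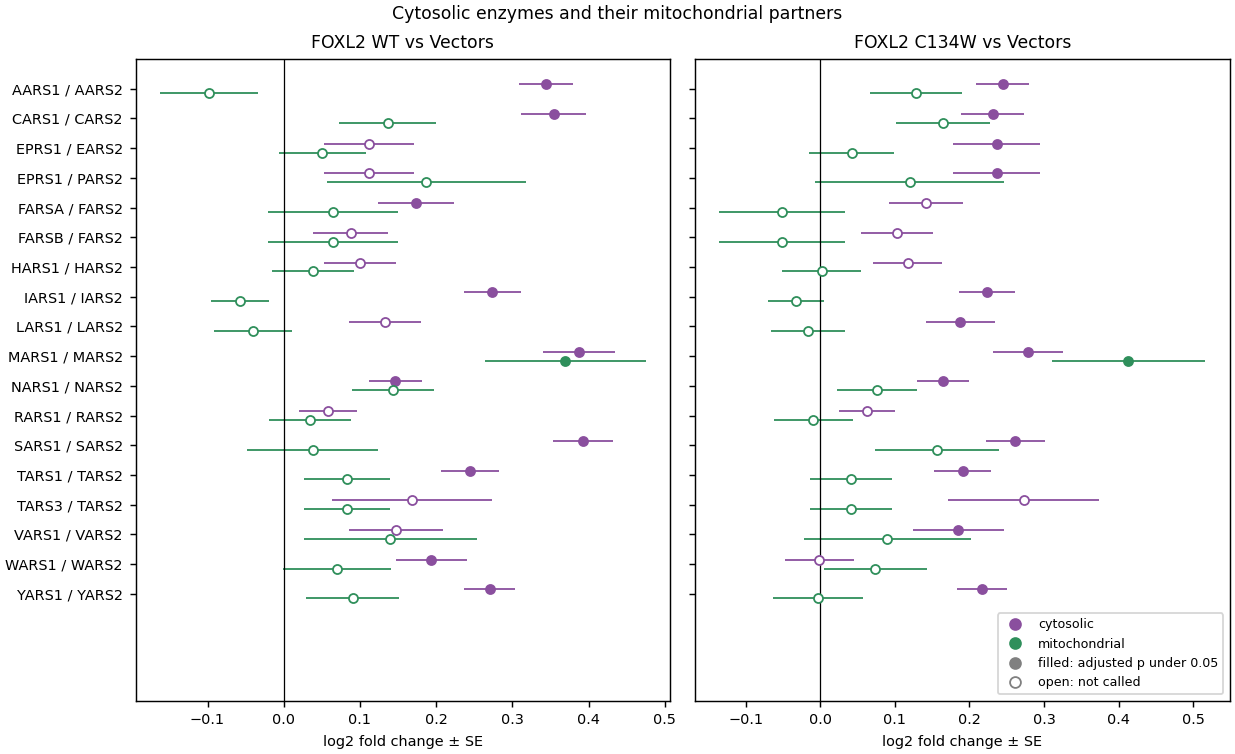
Log2 fold change ± SE against Vectors of each cytosolic enzyme (purple) and its mitochondrial partner (green) in FOXL2 WT (left) and FOXL2 C134W (right), filled where the edgeR adjusted p was under 0.05. The cytosolic point lies to the right in 17 of 18 pairs on the left and 16 of 18 on the right, and MARS2 is the only filled mitochondrial point in either panel.

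FOXL2 C134W was compared with FOXL2 WT to ask what the mutant form does beyond the wild-type form. Among cytosolic members, SARS1 (-0.13 ± 0.04, edgeR adjusted p = 0.0378) and WARS1 (-0.19 ± 0.05, edgeR adjusted p = 0.0105) were called lower, where 4.12% of all genes were called lower. Among mitochondrial members, AARS2 was called higher (0.23 ± 0.06, edgeR adjusted p = 0.0273), where 7.13% of all genes were called higher. These counts, 2 of 36 members lower and 1 of 36 higher, are near the background and are no result about the synthetases as a family. Without FOXL2 WT B or FOXL2 C134W B no member was called; SARS1 was also lost without FOXL2 WT A or C or FOXL2 C134W C (-0.11 to -0.15 over the 5 libraries), AARS2 without FOXL2 WT C or FOXL2 C134W C (0.19 to 0.23 over its 4), and WARS1 in those 2 cases only (-0.17 and -0.18). Without FOXL2 C134W A, 5 members were called, CARS1 and EPRS1 being added. The medians were -0.05 for cytosolic and -0.02 for mitochondrial members, beside -0.0115 over all genes. FOXL2 and SMAD3 transcripts were also lower with the C134W form (147 against 561 and 843 against 2768 CPM), so the form of FOXL2 and the amount of plasmid transcript cannot be told apart here.

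FOXO1 was co-transfected to ask whether it alters the response to either form of FOXL2. With FOXO1, SMAD3 transcripts were lower (969 against 2768 CPM under FOXL2 WT, 392 against 843 under FOXL2 C134W). FOXL2 transcripts were lower under FOXL2 WT (384 against 561 CPM) but not under FOXL2 C134W (152 against 147). FOXO1 itself averaged 117 and 43.2 CPM. The presence of FOXO1 and the amount of plasmid transcript therefore cannot be told apart here. By edgeR no member was called in FOXL2 WT + FOXO1 against FOXL2 WT, where 0.0144% of all genes were called higher and 0.0361% lower, and at an unadjusted p under 0.05 there were 2 cytosolic and 2 mitochondrial members. No member was called in FOXL2 C134W + FOXO1 against FOXL2 C134W (0.00721% of all genes higher, 0.707% lower), with 1 cytosolic and 5 mitochondrial members at an unadjusted p under 0.05. DESeq2 called no member in either comparison. Between the conditions with FOXO1, edgeR called no member in FOXL2 C134W + FOXO1 against FOXL2 WT + FOXO1 (0.0361% of all genes higher, 0.108% lower), 5 cytosolic and 1 mitochondrial members had an unadjusted p under 0.05, and DESeq2 called RARS1, for which edgeR gave 0.15 ± 0.04 (adjusted p = 0.13). The interaction, which subtracts the FOXO1 effect under FOXL2 WT from that under FOXL2 C134W, called no member by edgeR or DESeq2 (0.137% of all genes higher, 1.25% lower), with 3 cytosolic and 2 mitochondrial members at an unadjusted p under 0.05. TARS2 had the largest interaction estimate, 0.27 ± 0.08 (edgeR adjusted p = 0.11), followed by PARS2 at 0.22 ± 0.18.

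Levels were compared between genes per length, as TPM (transcript abundance divided by length and scaled to one fixed total per library). Over all 15 libraries, and counting transcripts of at least 1000 bases, the cytosolic members with the highest means were GARS1 (219 TPM), SARS1 (209), WARS1 (208), KARS1 (192) and YARS1 (189), and the lowest was TARS3 (5.802). The order depended on condition, since in Vectors alone WARS1 (201 TPM) and KARS1 (185 TPM) stood above GARS1 (181 TPM) and SARS1 (176 TPM). IARS2 was the highest mitochondrial member (74.9 TPM) and PARS2 the lowest (3.47). The summed level of the 20 cytosolic members was 3133, 3314 and 3386 TPM in Vectors and 3689.8 to 4063 TPM in the other libraries, without overlap. The summed level of the 16 mitochondrial members was 341 to 348 TPM in Vectors, 333 to 346 TPM in FOXL2 WT and 309.6 to 338 TPM in FOXL2 WT + FOXO1, while both conditions with the C134W form lay just above Vectors (348.5 to 382 TPM). Over transcripts of at least 1000 bases, FOXL2 C134W + FOXO1 was the condition that stayed above Vectors (288.9 to 298 against 271 to 285 TPM). These sums were not tested. The ratio of the sums was 9.503 ± 0.43 (SD, n = 3) for Vectors, 11.2 ± 0.37 for FOXL2 WT, 10.6 ± 0.63 for FOXL2 C134W, 11.7 ± 0.37 for FOXL2 WT + FOXO1 and 11.2 ± 0.28 for FOXL2 C134W + FOXO1. Short transcripts, whose TPM is sensitive to few reads, held 73.4% of the TPM of MARS1 and 55.6% of that of GARS1; with transcripts of at least 1000 bases the ratios were 7.74, 8.85, 8.57, 8.62 and 8.39 in the same order.

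**Figure D4:**
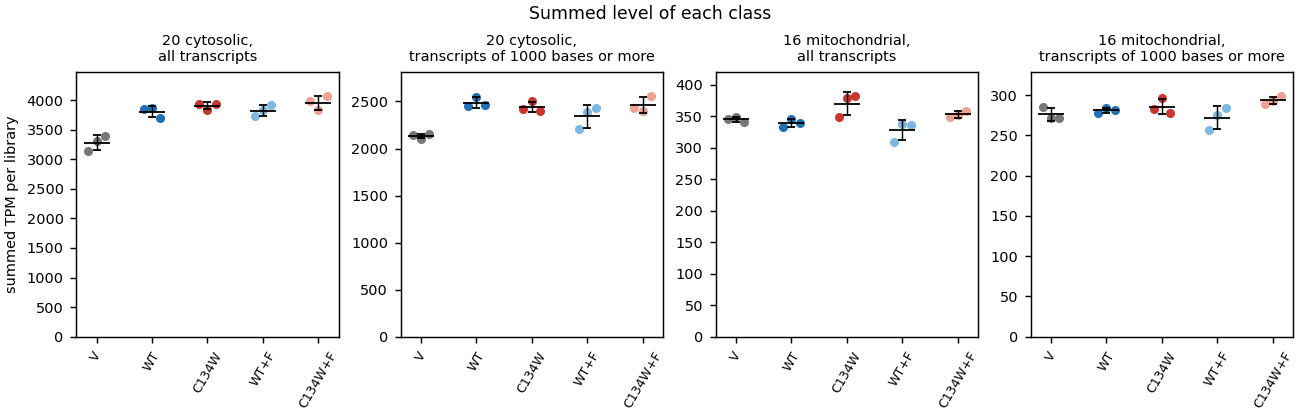
Summed TPM per library (points, 3 per condition) of cytosolic and mitochondrial members, over all transcripts and over those of at least 1000 bases, with condition means and SD (bars) and axes from 0 (V, Vectors, WT, FOXL2 WT, C134W, FOXL2 C134W, F, FOXO1). The cytosolic sum is lower in the 3 Vectors libraries (3133 to 3386 TPM) than in the other 12 (3689.8 to 4063 TPM), whereas the mitochondrial sums lie on both sides of the Vectors range (341 to 348 TPM).

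The transcript tables also show the forms of the genes that serve both compartments. For KARS1, the transcript KARS1-201, which encodes 597 residues, held 76.2% of the gene TPM, and KARS1-202, which encodes the mitochondrial form of 625 residues, held 1.04% (2.49 TPM). KARS1-202 was at 1.96 to 2.04 TPM in Vectors and at 2.71 to 2.99 TPM in FOXL2 WT + FOXO1, and the other conditions, with 1.30 to 4.88 TPM, overlapped Vectors. For GARS1, the full-length GARS1-201 (739 residues) held 44.4% of the gene TPM and was at 179 to 182 TPM in Vectors and at 199.7 to 248.6 TPM in the other libraries, without overlap. WARS1 was spread over more transcripts, led by WARS1-203 (430 residues, 22.3%) and WARS1-238 (471 residues, 17.3%). WARS1-204 (471 residues) was at 54.3 to 71.5 TPM in FOXL2 WT and at 22.4 to 47.8 TPM in the other libraries, without overlap, while WARS1-203 was at 60.7 to 81.2 TPM in FOXL2 WT and at 79.1 to 94.4 TPM in Vectors. WARS1-210, a transcript of 560 bases, was at 82.6 to 92.7 TPM in Vectors and listed at 0 in all FOXL2 WT libraries. WARS1-237, of 582 bases, showed the reverse, at 0 in all Vectors libraries and at 55.8 to 79.5 TPM in FOXL2 WT. In each of the other conditions both transcripts ran from 0 to at least 76.6 TPM. Such splits are estimates that depend on how salmon divides shared reads, and they were not tested.

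Members were then grouped by what they are known for. Of 13 synthetases regarded as ATF4-responsive, 10 rose in FOXL2 WT (median log2 fold change 0.27), where 2.46% of all genes were called higher, and 12 in FOXL2 C134W (median 0.22), where 7.48% were, WARS1 being the exception in the latter. Of the other 7 cytosolic synthetases (FARSA, FARSB, HARS1, KARS1, QARS1, RARS1 and TARS3), edgeR called FARSA in FOXL2 WT and none in FOXL2 C134W. In FOXL2 C134W, 5 had an unadjusted p under 0.05, among them QARS1 with a negative estimate (-0.09), and DESeq2 called 1. The medians of these 7 were 0.09 and 0.10. In FOXL2 WT + FOXO1 against Vectors, edgeR called 8 of the 13 higher (median 0.27) and none of the 7 (median 0.05). In FOXL2 C134W + FOXO1 against Vectors, it called 11 of the 13 (median 0.24) and 3 of the 7 (median 0.17). The shares of all genes were 1.41% and 4.17%, and DESeq2 called 1 and 5 of the 7. The multisynthetase complex joins several cytosolic synthetases on a scaffold. Of its 7 synthetases, 2 rose in FOXL2 WT and 4 in FOXL2 C134W, against the same 2.46% and 7.48%. Of all 20 cytosolic members, 11 and 12 were called higher in these comparisons, so the calls were not particular to the complex. Of its 3 scaffold proteins AIMP1, AIMP2 and EEF1E1 none was called by edgeR or DESeq2, with 1 and 0 at an unadjusted p under 0.05. By catalytic domain, 6 of 19 class I members were called higher in FOXL2 WT and 8 in FOXL2 C134W, against 2.46% and 7.48% of all genes. Among the other members, those of class II, AARS1, FARSA, GARS1, NARS1, SARS1 and TARS1 were called higher in FOXL2 WT. All of these but FARSA were called in FOXL2 C134W, so the calls were not particular to class I.

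The 7 cytosolic members with the C/EBP-ATF motif were all called higher in both FOXL2 WT (median 0.34, from 0.15 for NARS1 to 0.41 for GARS1) and FOXL2 C134W (median 0.23). Of the 9 cytosolic members whose window lacked it, 3 were called in FOXL2 WT (SARS1, WARS1 and FARSA) and 2 in FOXL2 C134W (SARS1 and EPRS1), with medians of 0.10 in both. Of all genes tested, 2.46% were called higher in FOXL2 WT and 7.48% in FOXL2 C134W. In FOXL2 WT + FOXO1 against Vectors, 6 of the 7 with the motif were called higher (median 0.27). Of the 9 without it, 1 was (median 0.06), against 1.41% of all genes. In FOXL2 C134W + FOXO1 against Vectors these counts were 7 (median 0.25) and 5 (median 0.17), against 4.17%. YARS2, the mitochondrial member with the motif, was not called by edgeR (0.09 ± 0.06 in FOXL2 WT and -0.0029 ± 0.060 in FOXL2 C134W). The interferon-stimulated response element, GAAANNGAA, was in the windows of EARS2, GARS1, IARS1 and WARS1 (9.86% of genes), the E-box CACGTG in those of CARS2, EARS2, IARS1 and MARS2 (8.77%), the forkhead motif GTAAACA in that of CARS1 (4.19%), and the SMAD palindrome GTCTAGAC in none (0.256%). The absence of a match says only that these letters are not in the window.

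The wider ATF4 pathway was described in the same libraries from a list of 15 genes. ATF4 itself rose by 0.31 ± 0.04 in FOXL2 WT and by 0.14 ± 0.04 in FOXL2 C134W. ASNS, which makes asparagine, PSAT1 and PHGDH, which make serine, and TRIB3, a pseudokinase induced by ATF4, rose by 0.74, 0.73, 0.52 and 0.78 in FOXL2 WT and by 0.45, 0.48, 0.35 and 0.38 in FOXL2 C134W. In all, 14 of 15 were called higher in FOXL2 WT (median 0.52), against 2.46% of all genes. In FOXL2 C134W, 10 were called higher (7.48% of all genes) and ATF3 lower (-0.42 ± 0.08), with a median of 0.28, and against FOXL2 WT 10 were called lower (4.12% of all genes) and none higher (median -0.26). These medians were further from 0 than those of the cytosolic synthetases in each of the 3 comparisons. All 12 transfected libraries were above Vectors for 11 of these 15 genes and for 11 of the 13 ATF4-responsive synthetases, against 3.14% of all genes. In FOXL2 WT + FOXO1 against Vectors, 11 of the 15 genes were called higher (1.41% of all genes), with a median of 0.35. In FOXL2 C134W + FOXO1, 8 were called higher (4.17%) and DDIT3 and ATF3 lower (5.16%), with a median of 0.29. ATF4 itself was not called by edgeR in FOXL2 C134W + FOXO1.

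**Figure D5:**
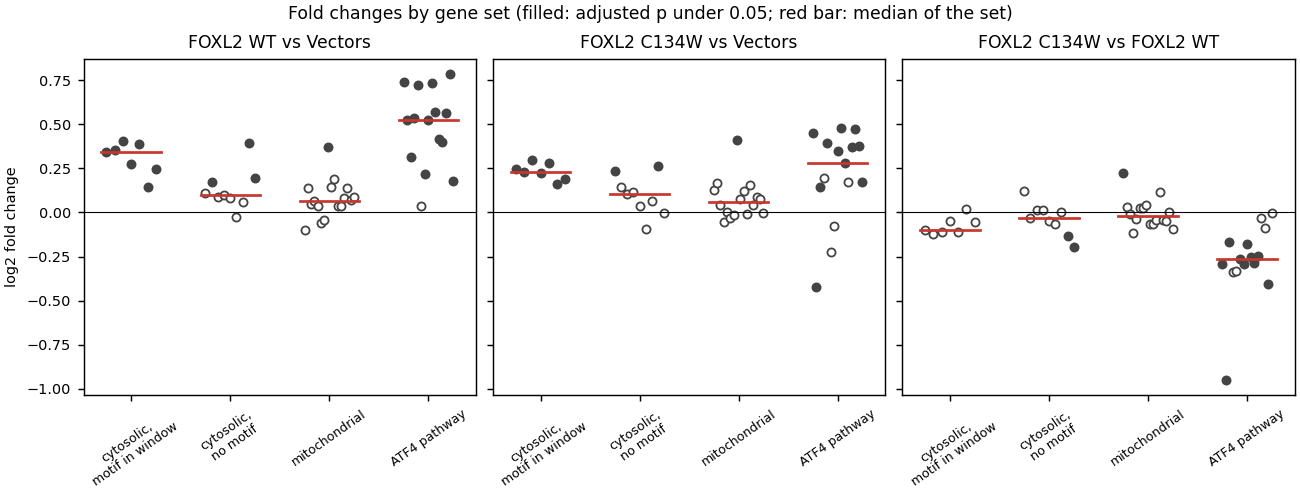
Log2 fold change (vertical axis) of cytosolic members with and without the C/EBP-ATF motif in their window, of mitochondrial members and of the ATF4 pathway, 1 point per gene, filled where called, in 3 comparisons, with the median of each set as a red bar. Against Vectors, the motif set (medians 0.34 and 0.23) lies above the set without it (0.10 and 0.10), and the ATF4 pathway spreads higher than either.

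Other genes of tRNA handling and translation were described as lists. Against Vectors, 2.46% of all genes were called higher in FOXL2 WT and 7.48% in FOXL2 C134W. A short list with no call is near these shares and is no result about that list. Of 11 genes of tRNA maturation and export, XPOT, the exporter of tRNA from the nucleus, rose by 0.31 ± 0.04 in FOXL2 WT and 0.24 ± 0.04 in FOXL2 C134W, PUS1, a pseudouridine synthase, by 0.36 ± 0.07 and 0.38 ± 0.07, and TRMT1, a tRNA methyltransferase, by 0.25 ± 0.07 and 0.27 ± 0.07; ELAC2, a tRNA processing nuclease, was called in FOXL2 C134W (0.14 ± 0.04) and missed the threshold in FOXL2 WT (0.12 ± 0.04). Of 3 genes listed for the response to uncharged tRNA, EIF2AK4, the kinase GCN2, and its activator GCN1 rose in FOXL2 C134W (0.15 ± 0.05 and 0.16 ± 0.05). IMPACT, also on that list, was not called there. None of the 3 was called in FOXL2 WT, by edgeR, by DESeq2 or at an unadjusted p under 0.05. Of the 4 mitochondrial partners of tRNA charging (GATB, GATC, QRSL1 and MTFMT), none was called against Vectors in FOXL2 WT or FOXL2 C134W by edgeR, by DESeq2 or at an unadjusted p under 0.05. Of 9 mitochondrial translation factors none was called in those comparisons by edgeR or DESeq2, with 0 and 3 at an unadjusted p under 0.05. Of the 5 cytosolic elongation factors, EEF2, which moves the ribosome along the mRNA, was called in FOXL2 C134W (0.16 ± 0.04), and in FOXL2 WT none was called by edgeR or DESeq2, with 2 at an unadjusted p under 0.05. The share of counts from mitochondrially encoded genes was 0.268% to 0.280% in Vectors and highest in FOXL2 C134W (0.314% to 0.369%), and its part in the values above was not tested.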

How the data were processed

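RNA of 15 HGrC1 libraries was grouped by the labels into 5 conditions of 3 replicates. The authors sequenced stranded mRNA libraries as 75-bp single-end reads, quantified them with Salmon 1.1.0 on hg38, summed transcripts to genes and deposited counts that are rounded salmon estimates, not normalized. The deposited transcript tables hold estimated counts, transcript lengths and TPM, which the authors took from salmon without further scaling. Members' TPM was summed over transcripts. No column of per-sample values was left unmapped.

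Members and gene lists were chosen with earlier results of these data known, so no list is independent support. Genes passing filterByExpr were fitted with edgeR 4.0.16 (R 4.3.3, TMM, quasi-likelihood test, 1 term per condition, all 15 libraries together), with Benjamini-Hochberg adjustment over 13868 genes and a threshold of 0.05. The SE was derived from the estimate and its F statistic. CPM was scaled by TMM and log2 CPM used a prior count of 2. DESeq2 1.42.0, limma 3.58.1, pandas 2.3.3, numpy 2.4.6 and matplotlib 3.10.9 (Python 3.11.15) were also used. The fit was checked on simulated counts. Coordinates came from GENCODE 44, which held 98.4% of the transcripts and may not be the release of the authors. For 34 of 39 promoter windows, the bases after the start site lay in a GENCODE 44 transcript of the gene in the same orientation.

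Values in every library are given for the 7 cytosolic and 4 mitochondrial members with the smallest p in the test of any difference, and for KARS1, GARS1, WARS1, HARS1 and HARS2; other members by range, count and called fold changes. Alternatives were DESeq2 with and without transcript length offsets, other size factors, filters and samples, offsets on gene length and GC content, a replicate block and leaving out each library. The planned protein alignment was not run, since no protein sequences were used here. No pair of replicates agreed within sampling noise (chi-square per degree of freedom 2.2 to 8.39). The depth of each library sets the precision, and the spread between replicates exceeded counting noise.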

Additional observations from a re-analysis of the deposited data

How the results depend on the processing

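Of the numbers of members called, 100 of 109 values under other settings and 70 of 75 with 1 library left out stayed within 1.5 times the reported count. DESeq2 with transcript length offsets moved most: against Vectors it called 6 members with FOXL2 WT and 5 with FOXL2 WT + FOXO1 and 1 in FOXL2 C134W against FOXL2 WT, it reversed NARS2 in FOXL2 C134W + FOXO1 against Vectors (-0.16), and it moved the medians to 0.21 (cytosolic) and 0.0050 (mitochondrial) in FOXL2 WT, to 0.12 (mitochondrial) in FOXL2 C134W and to -0.036 (mitochondrial) in FOXL2 WT + FOXO1, all against Vectors, to -0.013 (cytosolic) and 0.063 (mitochondrial) in FOXL2 C134W against FOXL2 WT, to -0.084 (mitochondrial) in FOXL2 C134W + FOXO1 against FOXL2 C134W and to 0.0015 (mitochondrial) in the interaction. The cause was not tested. An offset on gene length moved the cytosolic median in FOXL2 C134W against FOXL2 WT to -0.022, with or without the replicate block. The replicate letters do not pair the libraries: libraries of the same letter correlated at -0.164 to 0.166, over 0.1 in 2 of 30 pairs, and 5 of 15 libraries correlated best with their own letter. With the replicate block alone 12 members were called in FOXL2 WT and 13 in FOXL2 C134W against Vectors, and CARS2 was lost in FOXL2 WT + FOXO1, while with a GC offset it gave 5 calls in FOXL2 C134W against FOXL2 WT. In FOXL2 C134W + FOXO1 against FOXL2 WT + FOXO1, 1 member was called by DESeq2 (RARS1), with a filter of at least 1 count (EPRS1) and with a GC offset, with or without the replicate block (TARS2), and 1 in the interaction with a GC offset (TARS2). Ratios of summed TPM over transcripts of at least 1000 bases were 7.74, 8.85, 8.57, 8.62 and 8.39.

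With 1 library left out, the members called against Vectors numbered 8 to 10 in FOXL2 WT, 10 to 13 in FOXL2 C134W, 8 to 9 in FOXL2 WT + FOXO1 and 12 to 17 in FOXL2 C134W + FOXO1, and 0 to 5 in FOXL2 C134W against FOXL2 WT, 0 in each comparison that tests FOXO1 and 11 to 16 in the test of any difference. The cytosolic medians ran from 0.16 to 0.20 (FOXL2 WT), from 0.14 to 0.17 (FOXL2 WT + FOXO1) and from 0.040 to 0.075 (interaction). The mitochondrial medians ran from 0.023 to 0.094 in FOXL2 C134W against Vectors, from -0.033 to 0.0090 in FOXL2 C134W against FOXL2 WT, from 0.0036 to 0.054 in FOXL2 C134W + FOXO1 against FOXL2 C134W and from 0.019 to 0.11 in the interaction. AARS1, CARS1, GARS1, SARS1, TARS1 and YARS1 kept their call in FOXL2 WT under 17 of 17 alternatives. MARS2 kept its call in FOXL2 WT under 10 of 17 and in FOXL2 C134W under 17 of 17, AARS2 in FOXL2 C134W against FOXL2 WT under 10, WARS1 there under 14 and SARS1 there under 8. Depth limits the mitochondrial members most, since PARS2 had as few as 74 counts in a library. The test of any difference restricted to the libraries compared was not run, since it uses all 15 libraries already.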

Other observations

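The genes whose log2 CPM across the 15 libraries was most like the mean standardised profile of the 13 cytosolic members called in the test of any difference were XPOT, the tRNA exporter (Pearson r = 0.99), BDNF, a neurotrophin (0.97), OXTR, the oxytocin receptor (0.95), AIF1L (0.95) and CCN2, a matricellular protein (0.94). These values are descriptions over libraries that share their conditions. On the same measure the 16 mitochondrial members ran from -0.15 to 0.72, with a median of 0.27 and NARS2 and MARS2 (0.71) at the top, beside a median of 0.0032 over all genes tested.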
